A study of Rattus norvegicus with 20 samples.

Results

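Mon2 is the gene whose level was followed here in the arcuate nucleus of rat pups that differed in exposure before birth. It was chosen by its difference between prenatal betamethasone and prenatal saline in rats without spasms, where it was 1 of 13292 genes tested to pass an adjusted p under 0.05 in limma (0.00752% of the genes). With the slide as a random block 0 genes passed. That difference picked the gene, so every value of Mon2 in the comparison of BNS with SNS is a description and carries no test. Mon2 had 1 spot among the 44254 spots of the array, and that spot was named by the platform annotation. The accession annotated to the spot was not among the accessions of the rat gene table used for names, so the identity of the spot rests on the annotated symbol.

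Mon2 encodes a large cytosolic protein that sits on the membranes of the trans-Golgi network and of endosomes and is related to the exchange factors that load Arf GTPases, without their catalytic domain. In yeast it forms a complex with Dop1 and binds the GTPase Arl1, and in worms and human cells it acts with a Dopey protein, a P4 ATPase and sorting nexin 3 in the retrieval of cargo from endosomes to the Golgi apparatus. Betamethasone is a synthetic glucocorticoid that crosses the placenta, and glucocorticoids act on genes through a nuclear receptor that binds DNA.

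In the GRCr8 rat assembly Mon2 lies on the minus strand of chromosome 7, from 60534772 to 60613467. The 250 bases upstream of its start are shown because the exposure that picked the gene acts through a DNA-binding receptor. The sequence is that of RefSeq, read from 5′ to 3′ on the minus strand (chr7:60613468-60613717), and its capitals mark matches to the motifs searched on both strands.
Mon2 promoter: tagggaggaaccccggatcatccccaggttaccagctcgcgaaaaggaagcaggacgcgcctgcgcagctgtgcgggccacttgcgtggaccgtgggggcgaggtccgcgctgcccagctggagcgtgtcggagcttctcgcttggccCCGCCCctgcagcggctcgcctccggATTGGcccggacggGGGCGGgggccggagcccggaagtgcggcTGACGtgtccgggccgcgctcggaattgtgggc
The stretch held 2 matches to the GC box GGGCGG, a motif found in 30.5% of 33469 rat promoter stretches of the same length. It held 1 match to the CCAAT box, found in 34.0% of them, and 1 match to the CRE core TGACG, found in 18.2%. The glucocorticoid response core AGAACA had 0 matches here and was present in 17.5% of the stretches. No 2 matches overlapped. Bases G and C made up 72.4% of the stretch, against a median of 51.2% over all stretches, 94.3% of which were poorer in these bases. A match is a run of letters only, and the array reads no binding.

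The samples were arcuate nuclei of 20 male Sprague-Dawley pups, taken on postnatal day 15, in 5 groups of 4. SNS dams received saline on gestation day 15, and the dams of the BNS, BYS, BYA and BYP pups received 2 injections of betamethasone at 0.4 mg/kg each on that day. SNS and BNS pups had no spasms and were given saline. BYS, BYA and BYP pups had spasms triggered with NMDA on postnatal days 12, 13 and 15, and they were given saline, ACTH or PMX53, respectively. NMDA is an agonist of a glutamate receptor, ACTH is a pituitary hormone that drives the adrenal cortex, and PMX53 blocks C5ar1, a receptor of the complement system. The exposure was given to the dam, and which pups shared a dam is unknown here. Pups of a group are therefore taken as separate samples, and the p-values measure only the spread between them. No group had prenatal saline with spasms, so spasms were seen under betamethasone alone.

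Samples were labelled with Cy3 or Cy5 and hybridised 2 to an array, over 11 Agilent arrays on 6 slides. Each group exposed to betamethasone lay on 1 slide, so slide and group cannot be told apart for these 4 groups. SNS lay on 2 other slides. No slide held pups of both exposures, so slide and prenatal exposure cannot be told apart either. The array partners of SNS replicates 1 and 2 were from outside this set of pups. SNS replicate 2 was labelled Cy5 but stood apart. Over 12493 genes its deviations correlated at -0.45 with the profile that separates Cy5 from Cy3 in the betamethasone samples, among Cy3 samples at -0.84 to -0.56 and other Cy5 samples at 0.32 to 0.82. Samples had a value at 34107 to 44249 spots. The agouti-related peptide gene Agrp was brighter than 95.8% to 99.1% of the genes of each sample, and Pomc, the precursor of melanocortins, than 94.3% to 98.1%. Other markers of arcuate neurons were dim. Slc6a3, the dopamine transporter, was brighter than only 0.5% to 27.5% of the genes, Prlr than 14.0% to 21.3% and Kiss1 than 24.8% to 41.9%. The rest of the 10 markers lay between 62.5% (Ghrh) and 99.7% (Npy).

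The deposited intensity of the Mon2 spot was low in SNS and higher in every other group. In SNS it was 0.121, 0.103, 0.138 and 0.122 in replicates 1 to 4. In BNS it was 0.289, 0.258, 0.287 and 0.218. In BYS it was 0.449, 0.321, 0.397 and 0.305. The lowest intensity of BNS and the lowest of BYS both lay above the highest of SNS. In BYA the intensity was 0.272, 0.217, 0.311 and 0.349. In BYP it was 0.270, 0.227, 0.263 and 0.221. The 16 samples exposed to betamethasone thus spanned 0.217 to 0.449, and the 4 exposed to saline 0.103 to 0.138. The mean intensity of BNS was 2.18-fold that of SNS, that of BYS 3.04-fold, that of BYA 2.38-fold and that of BYP 2.03-fold.

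Levels below are log2 intensities from which the median of the sample was subtracted, so a Mon2 level below 0 is dimmer than the median gene. The mean level of SNS was -2.17 ± 0.19 (SD, n = 4), with samples at -2.18, -2.43, -2.03 and -2.04. BNS had -1.02 ± 0.12, with samples at -0.95, -0.92, -1.002 and -1.18. BYS had -0.60 ± 0.11, with samples at -0.44, -0.67, -0.59 and -0.69. SNS was therefore the lowest group and BYS the highest. Neither overlapped BNS, as for 5.98% of the genes between BNS and SNS and 18.7% between BYS and BNS. BYA had -0.90 ± 0.31, with samples at -1.03, -1.21, -0.87 and -0.48. BYP had -1.10 ± 0.07, with samples at -0.99, -1.13, -1.15 and -1.12. BYA had the widest spread, and its replicate 4 reached the BYS samples while its replicate 1 lay among those of BYP and its replicate 2 below them. From the lowest mean to the highest the order was SNS, BYP, BNS, BYA and BYS. Of the neighbours in that order, BYP and BNS overlapped, as did BNS and BYA, and BYA and BYS. Only SNS stood clear of the next group, BYP, as for 4.0% of the genes in that pair.

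**Figure D1:**
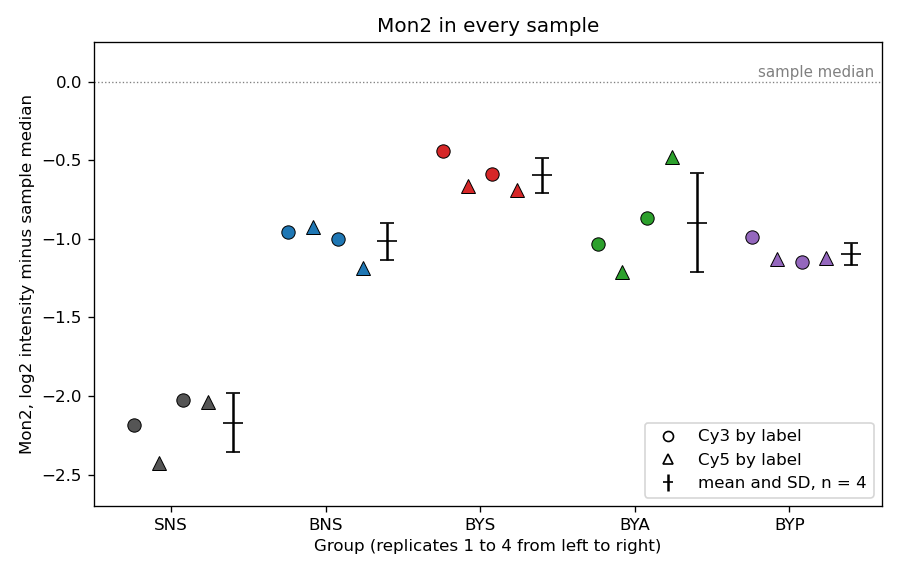
Mon2 level of each sample (vertical axis, log2 intensity minus the sample median) by group (horizontal axis), with circles for Cy3 and triangles for Cy5 by the labels and bars for the group mean and SD of 4 samples. The 4 SNS samples lie between -2.43 and -2.03 and the other 16 between -1.21 and -0.44.

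Against the other genes of the same sample, Mon2 was dim in SNS and below the middle elsewhere. It was brighter than 3.20% of the genes in SNS replicate 1, 6.87% in replicate 2, 9.80% in replicate 3 and 24.5% in replicate 4. In the 16 betamethasone samples it was brighter than 31.7% to 46.1% of the genes. The table holds no flag for spots near background, so whether the SNS values were above background could not be read. A set of 1378 unnamed spots shared a single value in each of 9 samples and was empty in the other 11, which gives a low level of the same sample to set beside Mon2. Mon2 was 2.14-fold to 3.76-fold above that value in the 8 betamethasone samples that hold it, and 1.33-fold above it in SNS replicate 2, the only SNS sample that does. The shared value itself was 0.170 and 0.210 in BYS, against 0.104 and 0.123 in BNS and 0.0772 in SNS replicate 2. It was 0.108 in the BYA samples that hold it, and 0.0718 and 0.112 in BYP, where the lower value was under that of SNS replicate 2. Low intensities were thus not on the same footing in every group, nor in every sample of a group.

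The fitted differences from SNS were positive for each betamethasone group. Mon2 was higher by 1.18 ± 0.16 on the log2 scale in BNS (± SE of the limma fit, n = 4 rats a group), by 1.60 ± 0.16 in BYS, by 1.30 ± 0.16 in BYA and by 1.10 ± 0.16 in BYP. Averaged over the 4 betamethasone groups the difference was 1.29 ± 0.13. The samples of BNS and SNS did not overlap, as for 5.98% of the genes in this pair, nor did those of BYS and SNS (15.2% of the genes), BYA and SNS (6.82%) or BYP and SNS (4.0%). These 5 values share the SNS samples that chose the gene and are given without a test. Slide and prenatal exposure cannot be told apart in any of them. Among the 1329 genes in the same band of brightness (band 4 of 10 by mean level), the median difference from SNS was -0.14 in BNS, 0.10 in BYS, -0.10 in BYA and -0.12 in BYP. Over all genes tested the median difference of BNS from SNS was -0.07. Quantile normalization moved this median to 0.0050 and the Mon2 difference to 1.61. In bulk tissue, fewer cells of a type and less RNA per cell cannot be told apart.

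The 16 betamethasone samples and the 4 SNS samples did not overlap in Mon2, and the gap between the lowest of the former (-1.21) and the highest of the latter (-2.03) was 0.82. All 16 lay above all 4 for 8 of the 12493 genes with a value in every sample (0.064%), and below them for 7 genes (0.056%). The other 7 genes above SNS had far narrower gaps. They are named here after their values were seen. Chka, a choline kinase, had a gap of 0.08, as did the caveolin gene Cav2. The gaps of the heat shock gene Hspb1, of Gpnmb, of Vps54, of the histone demethylase gene Kdm3a and of Tm7sf3 lay between 0.02 and 0.05. Below SNS the widest gap was 0.19, for Elavl3, an RNA-binding protein of neurons. The comparison shares the SNS samples with the choice of Mon2, and it is a count of genes with no test.

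**Figure D2:**
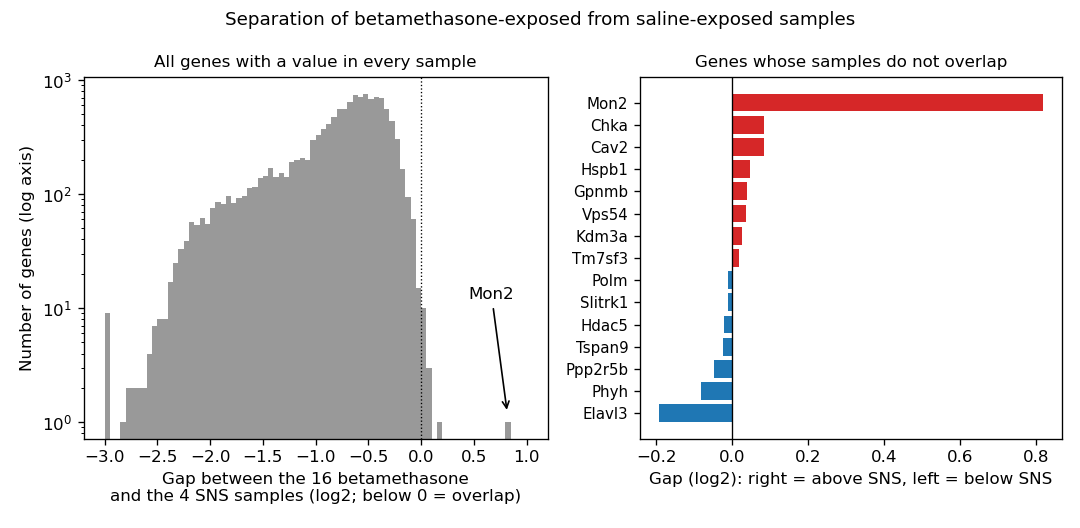
Left, number of genes (log axis) by the gap between the 16 betamethasone and the 4 SNS samples (log2, in the direction that separates them best, with values under -3.0 pooled in the leftmost bar), where values below 0 mean that the samples overlap. Right, the gaps of the 15 genes without overlap, to the right for those above SNS and to the left for those below it, where Mon2 reaches 0.82 and the next gene 0.19.

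As the betamethasone and SNS samples did not overlap, any split by dye or array position gives the same direction, and only the sizes are read here. BNS exceeded SNS by 1.13 in the 2 Cy3 samples of each group and by 1.18 in the 2 Cy5 samples. The Cy5 values count SNS replicate 2 by its label, though it stood apart from the other Cy5 samples. The difference of BYS was 1.59 in Cy3 and 1.56 in Cy5, that of BYA 1.15 and 1.39, and that of BYP 1.04 and 1.11. On the 9 arrays that held 2 samples of a group, Mon2 was lower in the Cy5 sample on 6 and higher on 3, with a mean difference of -0.04 and a range of -0.22 to 0.39. The widest of these was between BYA replicates 3 and 4. Replicate 1 of SNS, the only SNS sample at position 2 of its slide, had -2.18, and the 3 at position 1 averaged -2.16.

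The SNS samples of the 2 slides were not alike. SNS replicate 2, alone on its slide, had -2.43, and the 3 samples of the other slide averaged -2.08. Set against those 3 alone, BNS was higher by 1.07, and against replicate 2 alone by 1.41. The gap to the lowest betamethasone sample was 0.82 over the 3 samples and 1.22 over replicate 2. Leaving out SNS replicate 2 from the fit gave a difference of 1.08 between BNS and SNS, the lowest value with any 1 sample left out, and the highest was 1.22, without BNS replicate 4.

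The place of the spot on the array was read in the spots around it. The array was taken as 85 spots wide, and the local trend of a sample is the median deviation of the spots in a window of 21 by 21 spots. At the Mon2 spot the trend lay between -0.21 and 0.03 in SNS, -0.15 and 0.07 in BNS, 0.13 and 0.35 in BYS, 0.03 and 0.19 in BYA, and -0.11 and 0.07 in BYP. The surface was thus brightest in BYS, the group in which Mon2 was highest. Of the spots touching Mon2, 7 had a value in all samples, and their difference of BNS from SNS had a median of 0.32 and ran from -0.10 to 0.96, always under that of Mon2. Over the 317 complete spots of the window the median was -0.01, and 0 of them exceeded Mon2. Mon2 was chosen by this same difference, so its rank among these spots carries no weight. The local trend is a median over the window, so it does not take up the higher median of the touching spots.

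With the trend subtracted, the mean Mon2 level was -2.10 ± 0.12 (SD, n = 4) in SNS, -0.95 ± 0.09 in BNS, -0.83 ± 0.21 in BYS, -0.995 ± 0.25 in BYA and -1.06 ± 0.09 in BYP. The difference from SNS then was 1.16 in BNS, 1.28 in BYS, 1.11 in BYA and 1.05 in BYP, and the gap between the 16 and the 4 samples was 0.68. The 4 betamethasone groups came to lie within 0.23 of each other, and the difference of BYS from BNS went from 0.42 to 0.12.

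**Figure D3:**
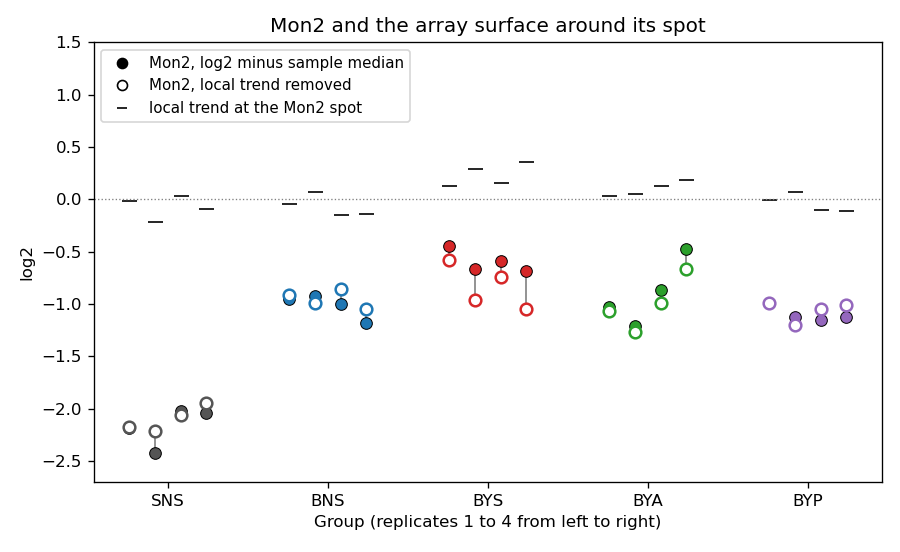
Mon2 level of each sample before (filled points) and after (open points) subtraction of the local trend, with the trend at the Mon2 spot as a short bar (vertical axis, log2), by group. The trend is highest in BYS, at 0.13 to 0.35, and the SNS samples stay below all others, by 0.68 with the trend removed.

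Spasms and their treatment were compared among betamethasone-exposed pups. BYS was higher than BNS by 0.42 ± 0.17. BYA differed from BNS by 0.12 ± 0.17, a value that turned to -0.02 without BYA replicate 4 and to -0.04 with the local trend removed. BYP differed from BNS by -0.08 ± 0.17. These 3 values share the BNS samples that chose Mon2 and have no test. The samples of BYS and BNS did not overlap, a pattern that 18.7% of the genes shared in this pair, whereas those of BYA and of BYP overlapped BNS, from which 8.45% and 6.04% of the genes stood apart. The spots in the window around Mon2 also differed between BYS and BNS, by a median of 0.34, and genes in its brightness band by a median of 0.24. Set over the value shared by unnamed spots, the difference of BYS from BNS was -0.19, of the opposite sign.

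The 3 differences among BYS, BYA and BYP compare means of samples that did not choose the gene. They were tested in limma with adjustment over all 13292 genes. The fit took its spread from all 20 samples, those of SNS and BNS among them, so the p-values are not free of the choice. None passed the threshold. BYA differed from BYS by -0.30 ± 0.17 (95% interval -0.66 to 0.06, adjusted p = 0.280), a comparison in which 8.67% of the genes passed. BYP differed from BYS by -0.50 ± 0.17 (95% interval -0.86 to -0.14, adjusted p = 0.0691), where 9.68% passed, and its adjusted p lay between 0.0091 and 0.357 over the alternatives. It was 0.0201 without SNS replicate 2 and 0.0210 without BYA replicate 4, neither of which is in the comparison. BYP differed from BYA by -0.20 ± 0.17 (95% interval -0.56 to 0.16, adjusted p = 0.943), where 0.0301% passed, and by -0.06 without BYA replicate 4 or with the local trend removed.

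The samples of BYP all lay below those of BYS, by a gap of 0.30, a separation that 12.6% of the genes showed in this pair. The samples of BYA overlapped those of BYS, and those of BYP overlapped BYA, where 10.7% and 3.39% of the genes stood apart. An exact permutation test over the 4 against 4 samples gave p = 0.0286, the smallest such a design allows, for BYP against BYS. The same exact test gave p = 0.143 for BYA against BYS and p = 0.257 for BYP against BYA, all two-sided and without adjustment over genes. Between BYP and BYS the median over all genes was -0.15 and that over the window around the spot was -0.30. The difference of Mon2 was -0.23 with the local trend removed and 0.41, of the opposite sign, over the value shared by unnamed spots. The slides of these groups differed too, so slide and treatment cannot be told apart.

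**Figure D4:**
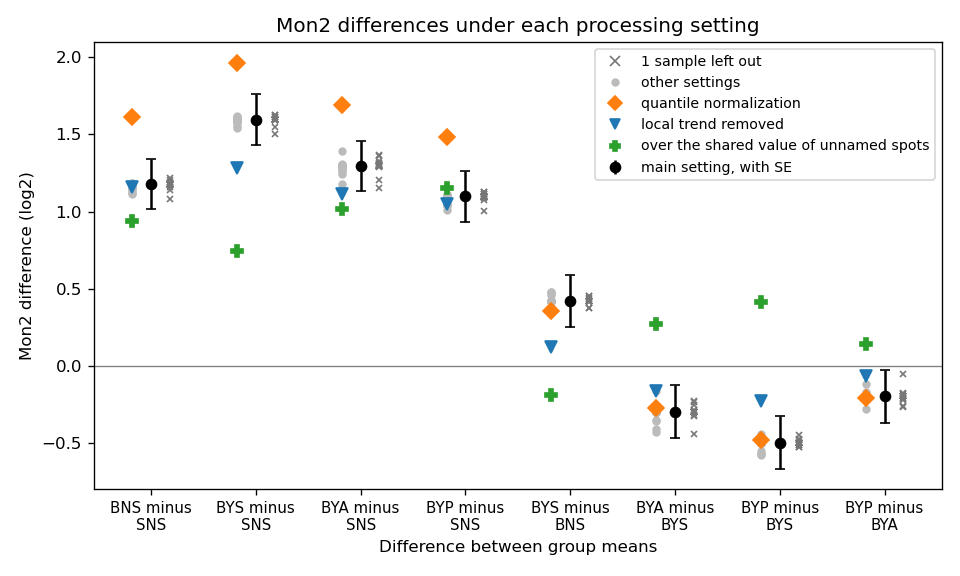
Mon2 differences between group means (vertical axis, log2) in 8 comparisons, with the main value and its SE in black, values with 1 sample left out as crosses and other settings as points, of which 3 are set apart by colour and shape. Every setting keeps the differences from SNS above 0, and those among the betamethasone groups reach the other side of 0 over the value shared by unnamed spots.

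Genes with a pattern like that of Mon2 were sought by Pearson's correlation over the 20 samples, among 9944 genes with a value in every sample and a level at or above the 25th percentile. The correlations are a description. Samples share arrays, slides and groups, and Mon2 varies mostly between groups. The highest were those of Kdm3a (r = 0.835), Pold4, a small subunit of DNA polymerase delta (0.785), Mcl1, an inhibitor of cell death (0.785), Ppp2r1b, a scaffold subunit of protein phosphatase 2A (0.785), and Vps54 (0.780). Vps54 is a subunit of the tethering complex that receives vesicles from endosomes at the trans-Golgi network. The 99th percentile of all correlations was 0.647, so these genes lie at the edge of a broad tail.

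All 5 were lower in SNS than in the other groups on average, by less than Mon2. Kdm3a had a mean level of -0.28 ± 0.23 (SD, n = 4) in SNS, 0.07 ± 0.15 in BNS and 0.46 ± 0.18 in BYS. Vps54 had -0.46 ± 0.06 in SNS, -0.23 ± 0.09 in BNS and -0.11 ± 0.15 in BYS. Pold4 differed between BNS and SNS by 0.64 ± 0.14 (± SE). These genes were chosen by their likeness over the same samples, so their differences are given with no test. The most opposed were Elavl3 (r = -0.815), the potassium channel gene Kcna6 (-0.803) and Ppp2r5b, a regulatory subunit of protein phosphatase 2A (-0.803). Elavl3 had 0.98 ± 0.09 in SNS, 0.56 ± 0.12 in BNS and -0.06 ± 0.09 in BYS, and its difference of BYS from BNS was -0.62 ± 0.18. With the local trend removed that difference was 0.0028.

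The likeness changed with the way it was read. Of the 5 genes most like Mon2, 2 were among the first 5 with the local trend removed (Vps54 and Kdm3a), and 0 were among the first 50 when deviations from the group means were correlated. By those deviations the highest were Bend6 (r = 0.783), Ralgapa1, which switches off Ral GTPases (0.781), and the growth factor gene Fgf9 (0.776). Over all samples Bend6 correlated with Mon2 at -0.437, and Ralgapa1 and Fgf9 at 0.362 and 0.401.

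**Figure D5:**
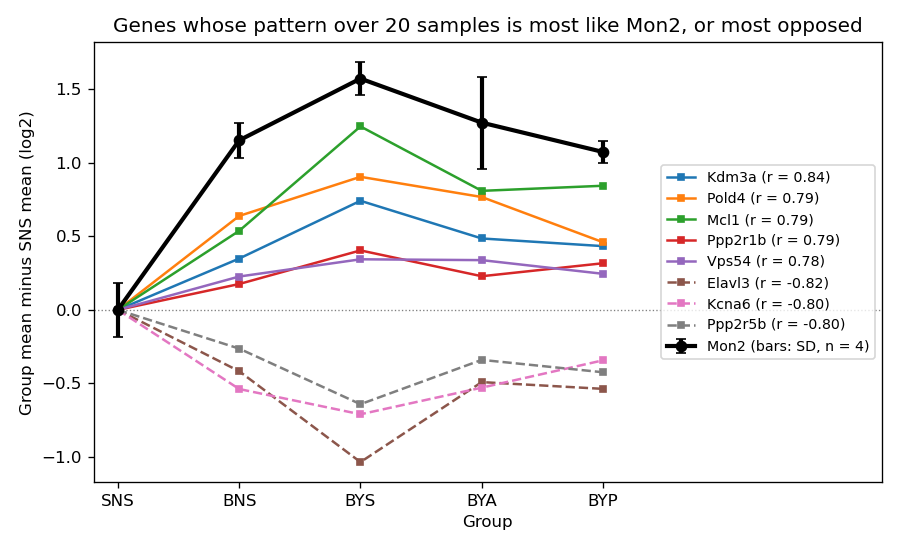
Group mean minus SNS mean (vertical axis, log2) by group for Mon2 (black, bars show the SD of 4 samples), for the 5 genes of highest correlation with it over 20 samples (solid) and the 3 of lowest (dashed); lines join the groups only to guide the eye. Mon2 has the widest departure from SNS, and the genes like it have their highest group mean in BYS.

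Of 10 genes whose proteins work with Mon2, in yeast or animals, 6 were tested, and 0 passed in limma between BNS and SNS or between BYS and BNS, with 1 and 2 of them at an unadjusted p under 0.05. Of all genes, 0.00752% and 15.5% passed in these 2 comparisons, and 14.9% and 34.0% were under that unadjusted p. Dop1b, a Dopey protein and the partner that binds Mon2 directly, had levels of 0.62 and 0.74 in SNS replicates 1 and 2 and of -3.29 and -1.88 in SNS replicates 3 and 4. Those 2 samples shared an array, and the 16 betamethasone samples lay between 0.32 and 1.19. Its difference of BNS from SNS was 1.35 ± 0.63 (adjusted p = 0.332), and rests on that array. Arl1, the GTPase that recruits Golgi tethers, differed by 0.11 ± 0.18 (adjusted p = 0.839), and Arfrp1, which acts upstream of Arl1, by 0.15 ± 0.20 (adjusted p = 0.786).

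Sys1, the membrane anchor of Arfrp1, differed between BNS and SNS by 0.24 ± 0.15 (adjusted p = 0.467), and Snx3, the sorting nexin of the Mon2 route, by 0.12 ± 0.18 (adjusted p = 0.812). Atp9b, a P4 ATPase, had -0.24 ± 0.31 between BNS and SNS (adjusted p = 0.780) and 0.88 ± 0.32 between BYS and BNS (adjusted p = 0.0720). The latter passed without SNS replicate 2 (adjusted p = 0.0231) or BYA replicate 4 (adjusted p = 0.0478). Atp9b was at -1.08 to -0.64 in BYS and at -2.17 to -1.28 in BNS, without overlap, as were 18.7% of the genes in this pair. With the local trend removed its difference was 0.39. The median of the 6 between BNS and SNS was 0.14, against -0.07 over all genes. Arl5a, Arl5b, Atp9a and Dop1a were not among the genes tested.

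On its chromosome, Mon2 has the vasopressin receptor gene Avpr1a as the nearest tested gene on the side of its end, and the deubiquitinase gene Usp15 on the side of its start. Neither followed Mon2. Avpr1a had a mean level of -0.94 ± 0.22 (SD, n = 4) in SNS and -0.69 ± 0.10 in BNS, a difference of 0.23 ± 0.18 (adjusted p = 0.566). Usp15 had -0.32 ± 0.06 in SNS and -0.43 ± 0.04 in BNS, a difference of -0.10 ± 0.17 (adjusted p = 0.847). Usp15 rose from BYS to BYA by 0.71 ± 0.18 (adjusted p = 0.0212) and from BYS to BYP by 0.59 ± 0.18 (adjusted p = 0.0454), where Mon2 had negative differences. With the local trend removed these differences of Usp15 were 0.35 and 0.25, and neither passed. Over 18 settings, that one among them, the call held in 13 for BYA and in 10 for BYP. In BYS replicate 2 Usp15 was at -1.36, beside -0.69, -0.43 and -0.54 in replicates 1, 3 and 4. Without that sample the rises were 0.53 to BYA and 0.41 to BYP. The rise from BYS to BYP held with 8 of the 20 samples left out in turn, and was lost (adjusted p of up to 0.106) without any 1 of SNS replicates 1, 3 and 4, the BNS and the BYP samples, or BYA replicate 3.

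Other genes of transport between the Golgi apparatus and endosomes were read in 8 lists of 143 genes in all, of which 115 were tested. Between BNS and SNS 0 of the 115 passed in limma, beside 0.00752% of all genes. Of the 115, 13 had an unadjusted p under 0.05, beside 14.9% of all genes. The median difference was 0.05, against -0.07 over all genes. Between BYS and BNS 8 rose and 11 fell, 16.5% of the list, beside 15.5% of all genes tested (8.87% rose and 6.62% fell). The share was near the background, and the median was 0.08 against 0.18 over all genes.

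The 3 largest increases from BNS to BYS were those of Lrp8, a receptor for reelin (1.09 ± 0.19, adjusted p = 0.0016), Cyth1, an Arf exchange factor (0.94 ± 0.31, adjusted p = 0.0465), and Atp10a, a P4 ATPase (0.91 ± 0.18, adjusted p = 0.0041). The 3 largest decreases were those of Ap3d1, a subunit of an adaptor complex of endosomes, which fell by 1.89 ± 0.23 (adjusted p = 8.66e-05), of App, the amyloid precursor, which fell by 1.24 ± 0.27 (adjusted p = 0.0071), and of Washc2c, a subunit of the WASH complex, which fell by 1.17 ± 0.22 (adjusted p = 0.0022). With the local trend removed these differences were smaller, at 0.59 for Lrp8, 0.52 for Cyth1, 0.53 for Atp10a, -1.23 for Ap3d1, -0.80 for App and -0.56 for Washc2c, and those of Cyth1 (adjusted p = 0.285) and Atp10a (adjusted p = 0.0541) did not pass in limma. The calls of App and Washc2c were lost with the slide as a random block (adjusted p = 0.134 and 0.0562) and in the Cy5 samples alone (0.0834 and 0.0638), and that of App in the Cy3 samples alone (0.0584). The call of Cyth1 held in only 5 of 17 other settings, with a lowest difference of 0.46 under quantile normalization, and with 8 of the 20 samples left out in turn. It was lost (adjusted p of up to 0.0941) without any 1 of SNS replicates 1, 3 and 4, BNS replicates 1, 2 and 4, BYS replicates 2, 3 and 4, BYA replicate 3, and BYP replicates 1 and 2. The count called in the list for this pair ranged from 4 of the list with the slide as a random block to 42 with the compared groups alone. Without SNS replicate 2 it was 35 and without BNS replicate 4 it was 9, against 19 in all. Of 17 glucocorticoid responsive genes tested, 0 passed between BNS and SNS, beside 0.00752% of all genes. At an unadjusted p under 0.05 there were 3, beside 14.9% of all genes. Between BNS and BYS 6 rose (Cdkn1a, Fkbp5, Hif3a, Nfkbia, Per1 and Zbtb16) and 0 fell, beside 8.87% and 6.62% of all genes. With 1 sample left out 4 to 9 were called. Per1 was lost without BNS replicate 2 or 4. Hif3a, the least firm of them (adjusted p = 0.0407), was lost without 12 of the 20 samples in turn, among them BNS replicates 2 and 4, all of BYS and BYP, and SNS replicates 1 and 4. Mon2 is on neither list.

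Markers of the cell types that the dissection could hold were read as summed levels. For 0 of 8 marker lists did the summed level of all 16 betamethasone samples lie above or below all 4 SNS samples. Of all genes, only 0.064% lay above and 0.056% below in this way, so the count says little about the cell types. The 10 markers of arcuate neurons summed to between 144.6 and 215.7 times the sample median in SNS, and 189.4 to 294.2 in BNS. The 5 astrocyte markers summed to 30.3 to 36.8 in SNS and 31.1 to 47.7 in BNS, and reached 43.9 to 55.0 in BYP. The 6 oligodendrocyte markers with a value summed to 11.6 to 23.6 in SNS and 10.4 to 13.3 in BNS, and the 8 markers of other hypothalamic nuclei to 36.4 to 64.6 and 18.7 to 48.3. The part of these differences in the level of Mon2 was not tested.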

How the data were processed

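The authors hybridised RNA of 20 samples to Agilent rat arrays in a 2-colour design and extracted them with Agilent Feature Extraction 10.7.3.1, per the submitters' processing notes. The deposited values are a linear intensity for each sample and spot, on a relative scale, and nothing read here states their background correction or normalization. Of 44254 spots, 32107 had a value in all samples. Precision is limited by the 4 samples of a group.

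Spots were named from the platform annotation and a RefSeq gene table of the GRCr8 assembly, which was matched for names and also gave the coordinates of Mon2 (an accession named 27335 spots, a symbol 3514, a synonym 785, the annotation alone 12, and 12608 stayed unnamed). Intensities were taken to log2, and the median over genes with a value in all samples was subtracted from each sample, since these medians spanned 0.345. A gene's level is the mean of its spots, and each group had to hold 3 or more values of it. Each of the 13292 genes was tested in R 4.3.3 with the limma package, version 3.58.1 (two-sided, Benjamini-Hochberg adjustment, threshold 0.05), with the 5 groups, the dye and the array as a random block (correlation 0.436). The fit was tested on simulated data. The other tools were Python 3.11.15 with pandas 2.3.3, scipy 1.17.1 (exact tests) and matplotlib 3.10.9 (plots), and, in R, the data.table package (version 1.17.8).

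Mon2, the lists and the rule for named genes were chosen with earlier results of these data known. The rule named Mon2, its partners, members of the Golgi and endosome lists that passed between BNS and SNS and up to 3 in each direction between BYS and BNS, the nearest tested gene on each side, and the 5, 3 and 3 genes of highest, lowest and highest within-group correlation. Samples of a group correlated at 0.955 to 0.996 and no pair was identical. Alternatives covered centring, normalization, the choice of spot, the dye, array, slide and position terms, the local trend, the replicate number as a block, filters, and each sample left out. The probe sequence was not used here.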

Additional observations from a re-analysis of the deposited data

Results flagged for a closer look

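Of 145 groups of 4 samples examined for Mon2, for the named genes and for the summed marker levels, 3 held a sample whose gap to the nearest other, divided by the range of the group, was above Dixon's critical value for 4 samples. Chance gives about 1 in 20 such groups. No group of Mon2 was among them. Usp15 had a level of -0.41 in SNS replicate 2, and -0.30 to -0.29 in the other 3 SNS samples. The summed level of the pituitary markers with a value (Lhb and Cga) was 3.69 times the sample median in BYS replicate 2, and 2.39 to 2.57 in the other BYS samples. In BYP replicate 1 the same sum was 2.09, and 3.42 to 3.57 in the other BYP samples.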

How the results depend on the processing

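The differences of the betamethasone groups from SNS stayed above 0 under every alternative run, at 1.08 to 1.22 for BNS with 1 sample left out. Quantile normalization gave 1.61 for BNS, 1.97 for BYS, 1.69 for BYA, 1.48 for BYP and 1.69 for their mean. With the local trend removed, BYS gave 1.28 and BYA 1.11 against SNS, and BYS gave 0.12 against BNS. Over the value shared by unnamed spots, a setting chosen after seeing the data that rests on SNS replicate 2 and on Cy3 pairs of the other groups, BNS gave 0.94, BYS 0.74, BYA 1.01 and their mean with BYP 0.96 against SNS. In that setting BYS against BNS was -0.19, BYP against BNS 0.22, BYA against BYS 0.27, BYP against BYS 0.41 and BYP against BYA 0.14. The cause of these shifts was not tested.

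BYP against BYS passed the threshold in limma with centring on the 75th percentile (-0.58, adjusted p = 0.0408), with no centring (-0.57, adjusted p = 0.0413), with centring on the median over complete spots, added after seeing the data (-0.57, adjusted p = 0.0432), and in the Cy3 samples alone (-0.55, adjusted p = 0.0307). At -0.50 it also passed with no array block (adjusted p = 0.0129), with no dye term (0.0091), with SNS replicate 2 taken as Cy3 (0.0307), with the dimmest 25% of genes left out (0.0477) and with the compared groups alone (0.0347). The exact permutation test, which takes samples of 1 array as separate, gave it p = 0.0286 without adjustment. With 1 sample left out it ranged from -0.53 to -0.45, with an adjusted p of 0.0201 to 0.118. The methods' unequal-variance test gave 0.0611 after Benjamini-Hochberg adjustment. BYA against BYS and BYP against BYA passed under none of the alternatives.

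The samples share only replicate numbers, and with the replicate number as a block in place of the dye term (replicate block) BNS against SNS was 1.17, BYP against BYS -0.50 (adjusted p = 0.0725) and no call on Mon2 changed. Of 40 same-numbered pairs of samples, 36 correlated above 0.1, and 11 of 20 samples correlated best with their own number. The pairs not above 0.1 were those of SNS replicate 2. Same-numbered samples share a dye, so these correlations do not show a pairing of the pups. The part of dye and position in them was not tested.

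Members of the Golgi and endosome lists called between BNS and SNS numbered 1 with no array block and 1 in the Cy5 samples alone. Between BYS and BNS they numbered 10 with the local trend removed, 36 with no array block, 4 with the slide as a random block, 30 with no dye term, 33 with SNS replicate 2 taken as Cy3, 5 in the Cy5 samples alone, 42 with the compared groups alone and 9 to 35 with 1 sample left out. Glucocorticoid responsive genes called between BYS and BNS, 6 in all, numbered 11 with no array block, 10 with no dye term, 12 with the compared groups alone, 2 with the slide as a random block, 3 in the Cy5 samples alone and 3 with the dimmest 25% of genes left out. Genes called between BNS and SNS ranged from 0 (slide as a random block, Cy3 samples alone, compared groups alone, and without BNS replicate 2) to 567 (Cy5 samples alone), with 29 without SNS replicate 2. The counts ranged from 301 to 4814 for BYS against BNS, 22 to 3084 for BYA against BYS, 0 to 3946 for BYP against BYS and 0 to 19 for BYP against BYA. In the slide fit, the spread between slides rests on SNS replicate 2 against the other SNS samples. Mon2 has a single spot at low intensity, so its values in SNS are limited by the signal over background, which is not known here.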
